A study of Mus musculus with 4 samples.

Results

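TRIM proteins (tripartite motif proteins) were followed at the transcript level as all 67 rows of the deposited count table, of 24411 rows in all, whose symbol is Trim followed by a digit. Libraries were made from B220+, CD43+ and HSA+ (CD24) bone marrow cells of C57BL/6 mice, labelled pro-B, an early stage of B cell development. The 2 knockout mice (numbers 51 and 63) were Tnpo3fl/fl mb1Cre and the 2 control mice (numbers 55 and 69) were Tnpo3+/+ mb1Cre, so both genotypes carried mb1Cre, a Cre recombinase driven from the Cd79a locus, which is active in the B lineage. Every mouse gave 1 library, so n is 2 per genotype throughout, and ages were not stated in the labels. Tnpo3 encodes transportin 3, which imports serine- and arginine-rich splicing factors into the nucleus.

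A TRIM protein carries a RING finger, 1 or more B-box zinc fingers and a coiled coil, and most members are E3 ubiquitin ligases, the enzymes that choose which protein is tagged with ubiquitin. The domains beyond the coiled coil set the class. PRY-SPRY domains bind proteins in many antiviral members, and PHD fingers with a bromodomain read chromatin. NHL repeats bind RNA or protein, and the COS box binds microtubules. Each gene was placed in 1 class, which need not name all its domains. Several members are induced by interferon and restrain viruses or adjust innate immune signalling, a role best known in myeloid and dendritic cells. Others are known mainly from muscle, neurons or red cell precursors.

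Total counts were 40647384 and 30440627 in knockouts 51 and 63, and 32697489 and 26211372 in controls 55 and 69. The targeted gene, Tnpo3, was at 79.7 and 68.8 CPM (counts scaled to library size, in CPM, after TMM scaling) in the knockouts, against 159 and 148 CPM in the controls, a log2 fold change of -1.05 ± 0.14 (SE) that passed edgeR's quasi-likelihood test at an adjusted p of 0.0108. Whole-gene counts do not separate transcripts that lack the floxed part from those of cells that kept it. Markers of other blood cells moved with the genotype. For comparison with the counts below, 11.3% of all 13507 genes tested were called higher and 10.9% lower. Of 12 pro-B markers, 9 fell and 0 rose, with summed levels of 3533 and 2801 CPM in the knockouts, against 10183 and 11849 CPM in the controls. None of these 12 markers was at 0 in any library. Of 12 dendritic markers, 10 rose and 0 fell, with summed levels of 8461 and 11382 CPM in the knockouts and 2857 and 1377 CPM in the controls. Of 10 neutrophil markers, 10 fell, and their summed levels were 211 and 52.0 CPM in the knockouts and 4722 and 3681 CPM in the controls. Among 12 NK and T cell markers 7 rose and 0 fell, with summed levels of 963 and 368 CPM in the knockouts and 87.3 and 107 CPM in the controls. The 10 monocyte and macrophage markers were divided, with 4 higher and 3 lower (1375 and 929 CPM in the knockouts, 504 and 478 CPM in the controls). Of 9 tested eosinophil, basophil and mast cell markers 8 fell, with 4.28 and 2.82 CPM in the knockouts and 309 and 148 CPM in the controls, and Ear2 and Fcer1a were at 0 in both knockouts. In sorted bulk cells, fewer cells of a type and less RNA per cell cannot be told apart.

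Of the 67 members, 44 passed the filter on low counts and were tested. In the knockout 6 rose, 4 fell and 34 did not pass at an adjusted p of 0.05. Without knockout 51, 4 rose and 2 fell, without knockout 63, 3 rose and 3 fell, and without control 69, 6 rose and 7 fell. With all 4 libraries the members called make up 22.7% of those tested, against 22.2% of all 13507 genes tested, so the share of TRIM genes called was near the background. The share called higher was 13.6%, against 11.3% of all genes, and the share called lower 9.09%, against 10.9%. The median log2 fold change was 0.10 over the tested members and -0.02 over all genes. The levels of the genotypes did not overlap for 30 of the 44 members (68.2%), against 67.5% of all genes. Among the 44 tested members, the knockouts were the higher for 16 and the lower for 14. Among all 13507 genes tested, these counts were 4452 and 4667 (33.0% and 34.6%). Summed over the family, TRIM transcripts made up 0.330% and 0.315% of counts in the knockouts, and 0.285% and 0.292% in the controls.

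**Figure D1:**
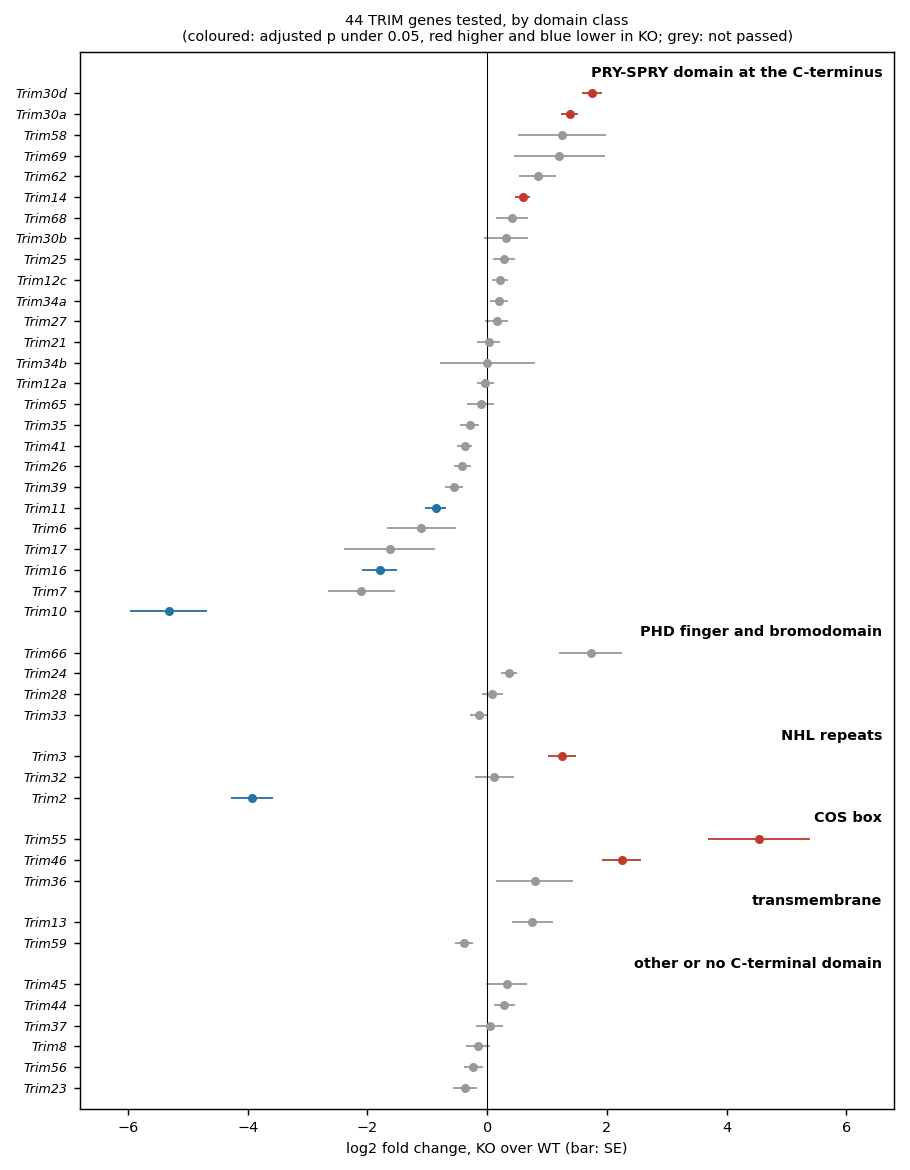
Log2 fold change (x axis, knockout over control, with SE) of the 44 TRIM genes tested, grouped by domain class (y axis). Red points rose, blue points fell and grey points did not pass at an adjusted p of 0.05. Calls lie in the PRY-SPRY, NHL and COS box classes, and the extremes are Trim55 at 4.53 and Trim10 at -5.32.

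Of 26 tested PRY-SPRY members, 3 rose, 3 fell and 20 did not pass, with a median log2 fold change of 0.01, where 11.3% of all genes were called higher and 10.9% lower. Those that rose were Trim30a, Trim30d and Trim14, and those that fell were Trim10, Trim11 and Trim16. Trim30a and Trim30d belong to a tandem cluster of PRY-SPRY genes on chromosome 7. Trim30a is an interferon-inducible gene whose product restrains Toll-like receptor signalling. It lies at chr7:104409025-104465193 on the minus strand (GRCm38, GENCODE M21). Trim30a was at 503 and 492 CPM in knockouts 51 and 63, against 186 and 198 CPM in controls 55 and 69. This is a log2 fold change of 1.38 ± 0.14 (SE; adjusted p of 0.00662 in edgeR). Both knockouts lay more than 2-fold above both controls. Its neighbour and close paralog Trim30d, at chr7:104470014-104507849 on the same strand, was at 155 and 152 CPM in the knockouts and at 51.0 and 40.3 CPM in the controls. The log2 fold change of Trim30d was 1.75 ± 0.16, at an adjusted p of 0.00601 in edgeR. The groups did not overlap for either gene, and the knockouts differed little between themselves. Trim30a made up 15.2% and 15.5% of all TRIM CPM in the knockouts, against 6.52% and 6.88% in the controls.

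The promoters of Trim30a and Trim30d are shown because these genes rose side by side, and that of Trim12c because it lies in the same cluster, holds the same motif and did not pass. Each run is the 250 bases before the RefSeq start in GRCm38.p6, on the minus strand, and capitals mark a match to the core of the interferon-stimulated response element, searched as GAAA, any 2 bases and GAAA, and seen here as its reverse complement.
Trim30a (chr7:104465194-104465443): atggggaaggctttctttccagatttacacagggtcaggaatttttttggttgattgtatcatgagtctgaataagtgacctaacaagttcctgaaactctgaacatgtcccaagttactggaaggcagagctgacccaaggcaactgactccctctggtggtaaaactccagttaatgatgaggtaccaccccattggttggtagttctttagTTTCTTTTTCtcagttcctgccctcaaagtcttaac
Trim30d (chr7:104507850-104508099): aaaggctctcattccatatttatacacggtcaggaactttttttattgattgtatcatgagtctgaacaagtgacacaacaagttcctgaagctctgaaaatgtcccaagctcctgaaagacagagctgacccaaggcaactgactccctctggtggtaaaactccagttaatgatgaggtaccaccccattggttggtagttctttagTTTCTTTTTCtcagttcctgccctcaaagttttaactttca
Trim12c (chr7:104353350-104353599): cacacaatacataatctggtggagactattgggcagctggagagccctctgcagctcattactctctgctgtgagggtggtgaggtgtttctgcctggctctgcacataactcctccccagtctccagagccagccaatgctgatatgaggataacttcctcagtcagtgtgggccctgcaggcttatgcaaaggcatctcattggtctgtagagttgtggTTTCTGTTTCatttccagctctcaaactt
The Trim30a and Trim30d runs were identical at 226 of 245 aligned bases (92.2%). The motif starts 36 bases before the Trim30a start shown, 41 before the Trim30d start and 29 before the Trim12c start. Another annotated start of Trim30a also held the motif, from base 3 after that start. Among windows of 300 bases (250 before to 50 after a start), searched on both strands, 3.44% of 32851 RefSeq promoters held this motif. Of 51 members with a promoter in that table (65 windows), 8 held it, namely Trim2, Trim12a, Trim12c, Trim21, Trim26, Trim30a, Trim30d and Trim34a. These are genes with a match in any of their windows, so their count is not directly comparable with the share of promoters. Of these 8 genes, Trim30a and Trim30d rose, Trim2 fell and the other 5 did not pass. A match is a description of the letters and not of binding.

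The other genes of the cluster that have a row in the count table were measured in the same libraries. Mouse Trim5 has no row there and is not covered. Trim30b, also in the cluster, was at 13.4 and 14.4 CPM in the knockouts and 14.9 and 7.37 CPM in the controls, and did not pass (0.32 ± 0.37 on the log2 scale, adjusted p of 0.58 in edgeR). Its groups overlapped, because control 55 lay above both knockouts. Trim12c and Trim12a, mouse relatives of the retroviral restriction factor TRIM5, had log2 fold changes of 0.21 ± 0.13 and -0.03 ± 0.14 (adjusted p of 0.276 and 0.881 in edgeR). Trim34a was at 58.1 and 55.1 CPM in the knockouts and at 52.4 and 46.8 CPM in the controls, and its adjusted p was 0.398. Trim34b and Trim6 did not pass either, and Trim30e-ps1, an annotated pseudogene, had 3 and 1 counts in the knockouts and 0 in both controls. Differences in response between the genes of the cluster were not tested.

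Near-identical sequence bears on these values. Of windows of 50 bases in the transcripts of Trim30a, 5.98% also occur in another gene, all of them in Trim30d, and 7.49% of those of Trim30d occur elsewhere, mostly in Trim30a. The share was 33.0% for Trim12c, 39.8% for Trim34a and 56.8% for Trim34b, so the values of Trim34a, Trim34b and Trim12c are uncertain. The labels do not state how reads with several alignments were counted.

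**Figure D2:**
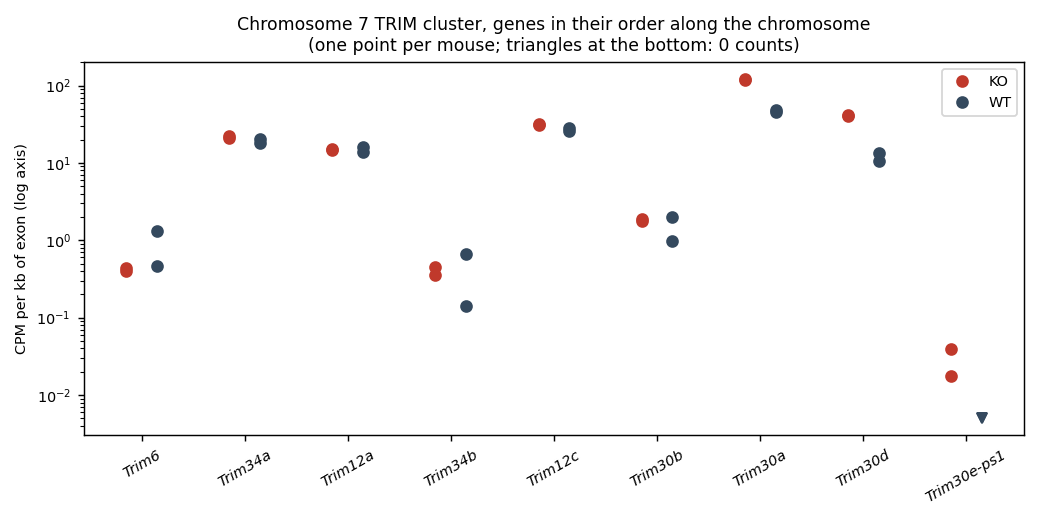
Level of the genes of the chromosome 7 cluster that have a row in the count table (x axis, in order along the chromosome). The y axis is CPM per kb of annotated exon (log scale), with 1 point per mouse and knockouts left of controls. Trim30a and Trim30d are separated by genotype by the widest margin among the tested genes shown, while for Trim12a the knockouts and controls overlap.

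Other genes of innate immune signalling were taken from lists. Of 20 genes of the interferon response, 12 rose and 0 fell, with a median log2 fold change of 1.41, against 11.3% of all genes called higher. Among them were Oasl2 (2.49 ± 0.17), Bst2 (3.77 ± 0.36), Mx1 (3.07 ± 0.35) and Mx2 (1.51 ± 0.18), all known as interferon-induced genes. Of the 20 genes, 8 did not pass. The summed level of all 20 was 3542 and 3490 CPM in the knockouts and 1039 and 1008 CPM in the controls. Bst2 alone was at 1324 and 1434 CPM in the knockouts and 133 and 69.3 CPM in the controls. Bst2 is also a dendritic marker, and the dendritic markers rose in the same libraries. Their part in the rise of the Trim30 genes was not tested. Flt3, Siglech, Itgax and Ccr9, which mark dendritic cells, were above 0 in all 4 libraries, and control 55 held more of them than control 69.

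Among the members that act on nucleic acid sensors, Trim14 passed. Trim14, which lacks a RING finger and serves as a mitochondrial adaptor of antiviral signalling, was at 106 and 103 CPM in the knockouts, against 66.5 and 71.9 CPM in the controls. Its log2 fold change of 0.59 ± 0.13 passed in edgeR (adjusted p of 0.0295). Without knockout 51, knockout 63 or control 55 the adjusted p was 0.160, 0.158 and 0.0555, with log2 fold changes of 0.57, 0.62 and 0.57. Of the annotated exons of Trim14 (chr4:46493781-46536141), 31.3% overlap those of Nans on the other strand. Nans itself was at 95.3 and 76.9 CPM in the knockouts and 68.0 and 88.4 CPM in the controls, with a log2 fold change of 0.14 and an adjusted p of 0.63.

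Trim25, the ligase that activates the RNA sensor RIG-I, was among the most abundant members and did not pass. It was at 315 and 234 CPM in the knockouts and at 227 and 224 CPM in the controls, so that knockout 51 stood above the other 3 mice. The change of 0.28 ± 0.18 on the log2 scale had an adjusted p of 0.314 in edgeR. Trim21, a cytosolic antibody receptor and ligase, was at 47.5 and 38.2 CPM in the knockouts and at 45.5 and 38.9 CPM in the controls, and Trim56 at 53.8 and 45.8 CPM in the knockouts and 57.3 and 59.7 CPM in the controls. Neither passed, at adjusted p-values of 0.944 and 0.331 in edgeR. Trim26 and Trim27, which also have PRY-SPRY domains, had log2 fold changes of -0.42 ± 0.14 and 0.16 ± 0.19 and did not pass. Trim26 passed without control 69 (adjusted p of 0.0465 in edgeR).

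Of 15 measured partners of these members in nucleic acid sensing, 5 rose and 2 fell, with a median log2 fold change of -0.05, against 11.3% of all genes called higher and 10.9% lower. Those that rose were Irf7 (3.54 ± 0.21), a transcription factor of interferon genes, Tmem173, which encodes STING (1.49 ± 0.18), Mb21d1, which encodes cGAS (1.94 ± 0.31), the adaptor gene Myd88 (0.82 ± 0.13) and the RNA sensor gene Ifih1 (1.46 ± 0.25). Those that fell, named after their values were seen, were Ddx58, which encodes RIG-I (-1.43 ± 0.28), and the ligase gene Traf6 (-0.71 ± 0.14). Fewer of these genes were called when knockout 51 or knockout 63 was left out, and more when control 69 was. The number of all genes called also changed with the library left out. Among TRIM proteins under other symbols, Pml, which builds nuclear bodies, was at 410 and 353 CPM in the knockouts and 245 and 233 CPM in the controls (adjusted p of 0.034 in edgeR). Mefv, which encodes pyrin, was at 0.446 and 0.265 CPM in the knockouts and at 2.81 and 2.37 CPM in the controls, and fell by 2.83 ± 0.51 on the log2 scale. Mid1 and Bspry did not pass, Mid2 was not tested, and the count for this list was 0 higher and 0 lower without knockout 63, 0 lower without control 55 and 0 higher without control 69.

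Of the 3 tested NHL members, 1 rose, 1 fell and 1 did not pass, where 11.3% of all genes were called higher and 10.9% lower. Trim2, known as a ligase for neurofilament light chain in neurons, lies at chr3:84160439-84306877. It was at 2.03 and 1.16 CPM in the knockouts, against 23.9 and 25.1 CPM in the controls. The fitted log2 fold change was -3.93 ± 0.35 (adjusted p of 0.0056 in edgeR). Its paralog Trim3, also studied mainly in brain, lies at chr7:105604463-105633571. Trim3 was at 34.1 and 31.4 CPM in the knockouts and at 16.0 and 11.4 CPM in the controls, a log2 fold change of 1.25 ± 0.24 (adjusted p of 0.0214 in edgeR). Neither gene's genotypes overlapped. Trim3 did not pass without knockout 51 (1.19, adjusted p of 0.0761) or without knockout 63 (1.32, 0.0630). Trim32, linked to muscular dystrophy, was at 19.2 and 20.1 CPM in the knockouts and at 12.8 and 23.6 CPM in the controls, with groups that overlapped. Trim71, a gene of early embryonic cells, had 0 counts in all 4 libraries.

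Of 8 COS box members, known from cytoskeleton and muscle, 3 were tested, of which Trim46 and Trim55 rose and Trim36 did not pass. Over all genes tested, 11.3% were called higher and 10.9% lower. Trim46, which organises microtubules at the start of axons, was at 7.55 and 10.2 CPM in the knockouts and at 1.93 and 1.80 CPM in the controls. The groups were well apart, at 2.24 ± 0.33 on the log2 scale (adjusted p of 0.013 in edgeR). Of its annotated exons (chr3:89234177-89246309), 6.30% overlap those of Krtcap2 on the other strand. Krtcap2 also rose, at 111 and 108 CPM in the knockouts and 48.5 and 61.9 CPM in the controls (0.99 on the log2 scale, adjusted p of 0.02 in edgeR), and its part in the counts of Trim46 was not tested.

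Trim55, a muscle RING finger gene at chr3:19644474-19692421, had 79 and 130 counts in the knockouts and 7 and 1 counts in the controls. In CPM these were 1.96 and 4.31 in the knockouts and 0.214 and 0.0376 in the controls, with a log2 fold change of 4.53 ± 0.85 (adjusted p of 0.0215 in edgeR). The size of this change depends on few control counts, and leaving out a library gave values from 3.84 to 6.27. Without knockout 63 it was 3.86, with an adjusted p of 0.0630. Trim63, the related MuRF1 gene, had 0 counts in both knockouts and 18 and 1 in controls 55 and 69, and was not tested. Trim67 had 9 and 12 counts in the knockouts and 0 in both controls. Trim36, a microtubule-associated member, was at 16.9 and 28.1 CPM in the knockouts and at 20.6 and 5.34 CPM in the controls, and passed only when control 55 was left out (log2 fold change of 2.11, against 0.79 with all 4 libraries, and adjusted p of 0.0106).

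Both members known from red cell precursors were low. Trim10, a RING finger gene of erythroid cells at chr17:36869574-36877833, had 2 and 3 counts in the knockouts and 118 and 65 counts in the controls. Its levels were 0.0495 and 0.0996 CPM in the knockouts and 3.61 and 2.44 CPM in the controls. The fitted log2 fold change of -5.32 ± 0.64 had an adjusted p of 0.00853 in edgeR. The knockout counts are at or under the 3 counts taken as the floor in a library. Trim58, which acts in the last steps of red cell formation, was at 1.02 and 0.465 CPM in the knockouts and at 0.183 and 0.451 CPM in the controls, and did not pass (1.25 ± 0.74, adjusted p of 0.273).

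Of 8 tested erythroid markers, 6 fell and 0 rose, with a median of -3.43, against 10.9% of all genes called lower. Klf1, an erythroid transcription factor gene, was at 0.248 and 0.166 CPM in the knockouts and 2.66 and 3.46 CPM in the controls. The 4 globin genes on the list had 0 counts in all 4 libraries. The summed level of the list was 750 and 1620 CPM in the knockouts and 659 and 425 CPM in the controls. Most of this sum was Tfrc, the transferrin receptor gene of dividing cells, which was at 747 and 1612 CPM in the knockouts and 574 and 360 CPM in the controls. The part of erythroid cells in the fall of Trim10 was not tested.

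The other members that fell were Trim16 and Trim11. Trim16, which lacks a RING finger and takes part in the removal of damaged lysosomes, lies at chr11:62820231-62850808. It was at 10.9 and 13.2 CPM in the knockouts and at 31.7 and 51.9 CPM in the controls, a log2 fold change of -1.79 ± 0.29 (adjusted p of 0.016 in edgeR). Without knockout 51 it was -1.66 with an adjusted p of 0.0526. Of its exons, 5.19% overlap those of Fbxw10 on the same strand, and Fbxw10 stood at 4.68 and 4.31 CPM in the knockouts and 2.23 and 1.20 CPM in the controls. Trim11, a ligase implicated in protein quality control, lies at chr11:58978093-58991458. It was at 83.7 and 84.9 CPM in the knockouts and at 175 and 131 CPM in the controls. On the log2 scale Trim11 fell by 0.86 ± 0.18 (adjusted p of 0.0269 in edgeR). Without knockout 51 or knockout 63 the adjusted p was 0.107 and 0.112. The knockouts were close together, while control 55 stood above control 69.

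Trim7, whose product was first described as a partner of glycogenin, lay at the threshold. It was at 1.86 and 2.82 CPM in the knockouts and at 14.6 and 5.45 CPM in the controls, with a log2 fold change of -2.11 ± 0.56 and an adjusted p of 0.0503 in edgeR. Without control 55 the change was -1.19 and without control 69 it was -2.65, where it passed. DESeq2 gave an adjusted p of 0.00238, edgeR on unfiltered genes 0.017 and edgeR on total counts 0.047. Trim39, a ligase linked to the control of cell division, was at 46.3 and 50.8 CPM in the knockouts and 77.3 and 65.3 CPM in the controls (adjusted p of 0.0598 in edgeR), and it passed with DESeq2 (0.0452) and without control 69 (0.0297).

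**Figure D3:**
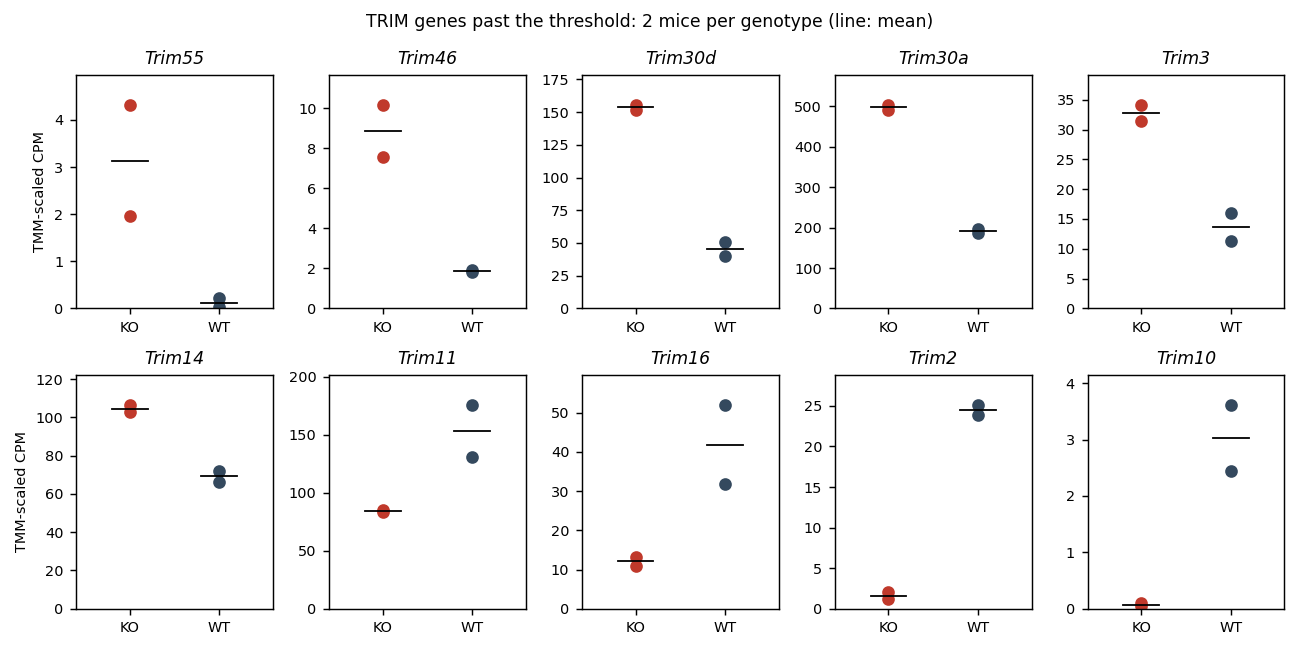
TMM-scaled CPM (y axes, each from 0) of the 10 TRIM genes that passed, with 1 point per mouse, the mean as a line, and knockouts (KO) left of controls (WT). In each panel the 2 knockouts lie on one side of the 2 controls, and Trim55 has the widest spread relative to its mean, at 3.14 ± 1.67 CPM in knockouts and 0.126 ± 0.125 CPM in controls (SD).

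None of the 4 members with a PHD finger and bromodomain passed in edgeR, and their median log2 fold change was 0.23. Trim28, also called KAP1, the corepressor that KRAB zinc finger proteins recruit to silence transposable elements, was at 515 and 455 CPM in the knockouts and at 412 and 501 CPM in the controls. The groups overlapped, at 0.09 ± 0.18 on the log2 scale (adjusted p of 0.754 in edgeR). Trim33, a partner of SMAD signalling, was at -0.14 ± 0.15, and Trim24, a coregulator of nuclear receptors, at 0.37 ± 0.13 on the log2 scale, and neither passed (adjusted p of 0.518 and 0.107 in edgeR). Trim66 was at 2.06 and 1.36 CPM in the knockouts and at 0.611 and 0.413 CPM in the controls, and did not pass at 1.73 ± 0.52 (adjusted p of 0.0701 in edgeR). Of 13 tested genes of the TRIM28 repressor complex, 0 rose, 1 fell and 12 did not pass, with a median of -0.13, against 11.3% of all genes called higher and 10.9% lower. The gene that fell was Cbx1, which encodes a heterochromatin protein (-0.54 ± 0.13, adjusted p of 0.0379 in edgeR), and it did not pass without knockout 51, knockout 63 or control 69.

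Levels were set side by side per length of annotated exon. In the knockouts Trim30a stood at 121 ± 1.99 CPM per kb (SD, n = 2) and Trim28 at 117 ± 10.2, so the first and second places did not differ beyond the spread. In the controls Trim28 stood at 110 ± 15.1 and Trim30a at 46.6 ± 2.05 CPM per kb, which were separate. Trim30d ranked 4 in the knockouts, at 40.9 ± 0.644 CPM per kb, and 16 in the controls, at 12.2 ± 2.01. Trim11 ranked 10 in the knockouts, at 23.5 ± 0.241 CPM per kb, and 3 in the controls, at 42.7 ± 8.82.

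Among the other abundant members, Trim25 was at 47.7 ± 9.95 CPM per kb in the knockouts and 39.2 ± 0.468 in the controls. Trim44, which resembles a deubiquitinating enzyme, was at 35.8 ± 6.54 CPM per kb in the knockouts and 29.4 ± 0.891 in the controls. Trim59, a membrane-bound member, was at 26.5 ± 0.410 CPM per kb in the knockouts and 34.7 ± 4.86 in the controls, and Trim12c at 31.5 ± 0.957 in the knockouts and 27.2 ± 1.72 in the controls. The genotypes did not overlap for Trim59, Trim44 or Trim12c, but none of the 3 passed (adjusted p of 0.118, 0.272 and 0.276 in edgeR). In CPM per library, Trim44 was at 176 and 228 in the knockouts and 169 and 162 in the controls. Trim59 was at 89.7 and 87.7 CPM in the knockouts and 128 and 105 CPM in the controls, and Trim12c at 120 and 115 CPM in the knockouts and 106 and 97.0 CPM in the controls.

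Trim35 was at 105 and 95.6 CPM in the knockouts and 110 and 136 CPM in the controls, and Trim27 at 153 and 120 CPM in the knockouts and 107 and 136 CPM in the controls. Per kb of exon, Trim35 was at 21.7 ± 1.46 CPM in the knockouts and 26.7 ± 3.93 in the controls. Trim27 was at 24.8 ± 4.28 CPM per kb in the knockouts and 22.2 ± 3.75 in the controls. The groups overlapped for Trim27 but not for Trim35. The log2 fold change of Trim35 was -0.30 ± 0.16 and did not pass (adjusted p of 0.224 in edgeR). Exon lengths are the union over all annotated transcripts of a gene.

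**Figure D4:**
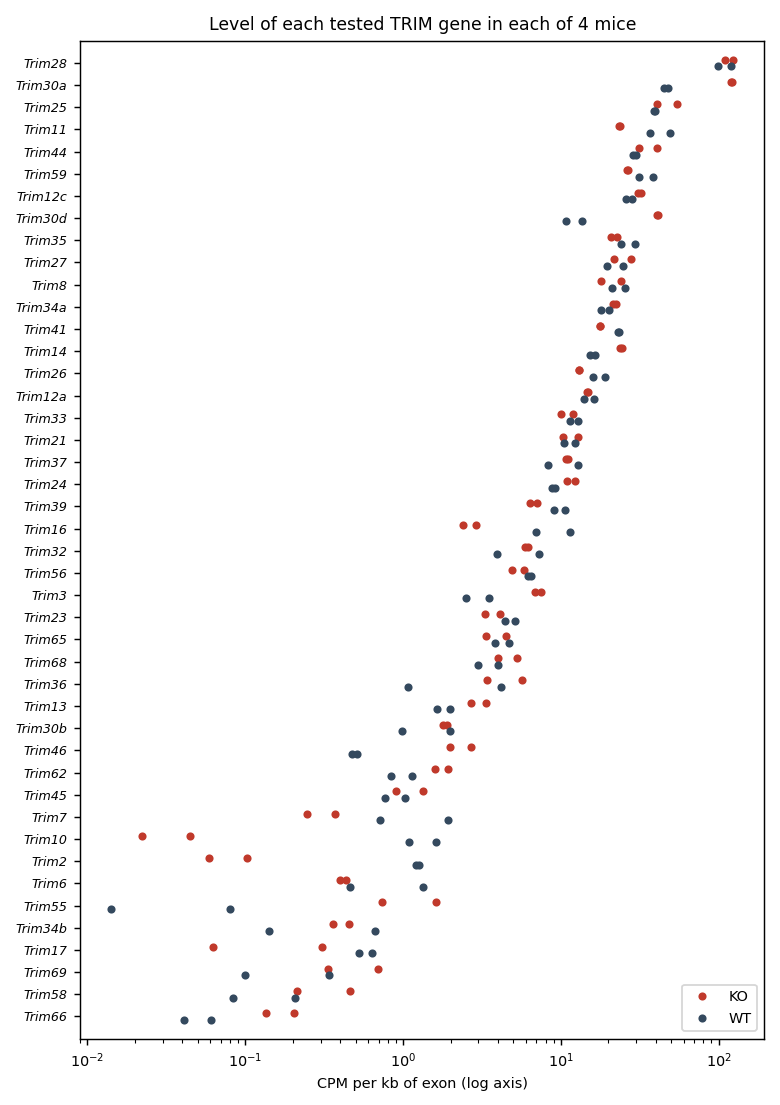
Level of the 44 tested TRIM genes (y axis, ordered by the mean over 4 mice) in CPM per kb of annotated exon (x axis, log scale), with 1 point per mouse, knockouts in red above controls in dark blue. Levels span 0.110 to 113 CPM per kb as means over 4 mice, from Trim66 to Trim28.

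None of the remaining tested members passed in edgeR. Of 6 tested members with another or no C-terminal domain, 6 did not pass, nor did either transmembrane member. Trim41, Trim8, Trim37, Trim65, Trim45, Trim23 and Trim68 had log2 fold changes between -0.38 and 0.42. Trim13 and Trim62 were at 0.75 ± 0.34 and 0.84 ± 0.31, with non-overlapping groups and adjusted p-values of 0.170 and 0.108 in edgeR. Trim69, Trim17, Trim6 and Trim34b were each under 7 CPM in every library, and their SEs ran from 0.576 to 0.795. Trim6 passed without control 55 (-1.64, adjusted p of 0.0481). In all, 24 of the 44 tested members had fold changes within 0.5 of 0 on the log2 scale.

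The 23 members that were not tested had at most 18 counts in any library. Of these, 10 had 0 counts in all 4 libraries, namely Trim29, Trim31, Trim43b, Trim50, Trim52, Trim54, Trim60, Trim61, Trim71 and Trim80. The other 13 were Trim9, Trim15, Trim30e-ps1, Trim38, Trim40, Trim42, Trim43a, Trim43c, Trim47, Trim63, Trim67, Trim72 and Trim75. A count of 3 was taken as the floor here. It corresponds to 0.0743 and 0.0996 CPM in knockouts 51 and 63 and to 0.0917 and 0.113 CPM in controls 55 and 69. Levels under this floor, such as that of Trim55 in control 69, are uncertain at this depth. No molecular identifiers are described for the libraries, so this floor covers counting error only.

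The genotypes held 1 female and 1 male mouse each, as read from Xist and the Y-linked gene Ddx3y. Ratios were taken within the females (knockout 63 over control 55) and within the males (knockout 51 over control 69). Since the genotypes did not overlap for any of the 10 called members, the sign of these ratios was fixed beforehand, and they are given for their size. For Trim30a the log2 ratio was 1.40 in the females and 1.35 in the males, for Trim30d 1.57 and 1.95, for Trim2 -4.37 and -3.63, and for Trim16 -1.26 and -2.25. Each of these ratios compares 2 libraries and has no replicate. With each library left out in turn, Trim2, Trim10, Trim30a, Trim30d and Trim46 passed every time, while Trim3, Trim11, Trim14, Trim16 and Trim55 were each lost at least once.

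**Figure D5:**
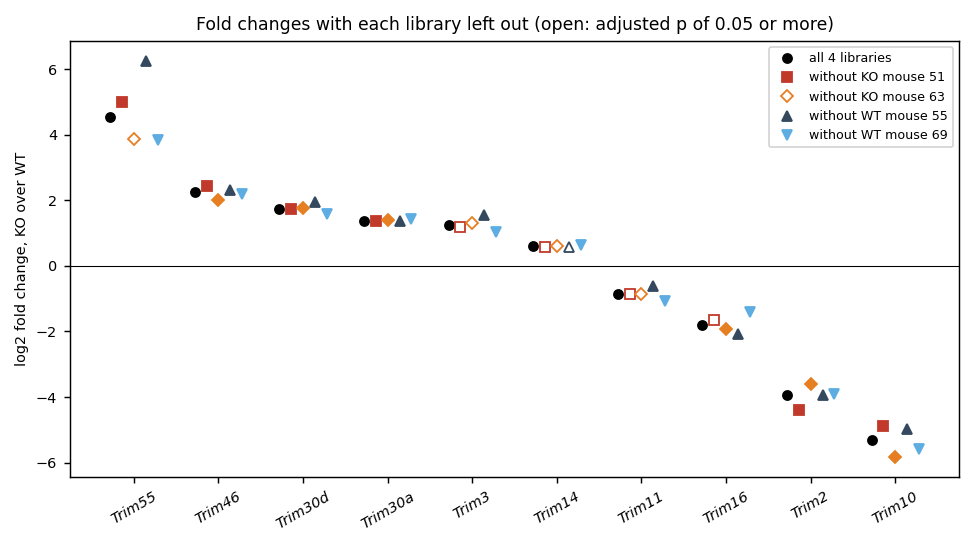
Log2 fold change (y axis, knockout over control) of the 10 called TRIM genes (x axis) with all 4 libraries and with each library left out. Filled symbols have an adjusted p under 0.05 and open symbols do not. Trim30a stays between 1.36 and 1.42, while Trim55 ranges from 3.84 to 6.27.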

How the data were processed

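RNA was sequenced from sorted pro-B cells of 4 mice. Per the labels' protocols, RNA was isolated with an RNeasy kit and libraries with the NEBNext low input kit. The submitters' processing notes list DESeq2, featureCounts, Subread 2.0.0, STAR 2.7.4a, deepTools 3.3.2 and SAMtools 1.10, and the builds mm10 and GRCm38. Not given in the sources used here were the annotation, the strand setting and the treatment of multiply aligned reads, so overlapping genes on either strand cannot be told apart. The authors deposited whole-number counts for 24411 symbols. They also deposited a normalized signal, the count times 1 factor per library, which was used in 1 alternative.

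The analysis used edgeR 4.0.16 under R 4.3.3: filterByExpr (minimum count 10, minimum total 15), TMM scaling, and the quasi-likelihood F test of knockout against control over all 4 libraries. P-values were adjusted by Benjamini-Hochberg over 13507 genes, with a threshold of 0.05. SEs were computed as the log2 fold change over the square root of F. The procedure was run on simulated counts that gave all genes the same spread between libraries. That run checked the code, and not how the test behaves on these data. Per-kb levels used exons of GENCODE M21, which held all 67 members. Motifs and sequences came from the RefSeq promoter table of GRCm38.p6. Alternatives were other scalings (total counts, or size factors from DESeq2), other filters (none, or a mean of at least 50 counts with 1 CPM in 2 libraries), other tools (limma-voom in limma 3.58.1, DESeq2 1.42.0, and limma on the log2 of deposited normalized values with 1 added), a threshold of 0.1, each library left out and, added after seeing the data, sex as a block. No mouse number occurs in both genotypes. Each tested member is named once, with values in every library for those that passed and for the 10 with the highest level per kb. Other members given per library, and Ddx58, Traf6, Nans, Krtcap2 and Fbxw10, were chosen after their values were seen. From the other lists up to 5 genes with the lowest adjusted p are named, except for items not reported here. The members, lists and rules were chosen with earlier results of these data known.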

Additional observations from a re-analysis of the deposited data

How the results depend on the processing

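With each library left out in turn, 3 to 6 TRIM members were called higher and 2 to 7 lower, against 6 and 4 with all libraries, and 747 to 1649 of all genes were called higher and 530 to 1580 lower, against 1524 and 1468. Without knockout 51 the TRIM counts were 4 and 2, without knockout 63 they were 3 and 3, and without control 69 they were 6 and 7. A fit without 1 library leaves a lone library in a genotype, which is assumed to vary like the others. At a false discovery rate of 0.1, 8 TRIM members and 2232 of all genes were called lower. Under the other alternatives the TRIM counts stayed at 5 or 6 higher and 3 to 6 lower. Trim55 is not among the authors' normalized values, and the stricter filter removes Trim10, Trim17, Trim34b, Trim58, Trim66 and Trim69, so these gave no value there.

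Of 521 refits of single members, 484 kept direction and side of the threshold, 9 fell short of it, 11 newly passed and 17 changed sign, and each of these 17 was of a member that had not passed. With total counts Trim21 was at -5.8e-05 and Trim34b at -0.013, and without a filter Trim12a was at 0.00089. With a library left out, log2 fold changes ran from -0.14 to 0.17 for Trim21, -0.027 to 0.35 for Trim27, -0.014 to 0.23 for Trim28, -0.69 to 1.54 for Trim34b, -0.33 to 0.081 for Trim65, -0.38 to 0.045 for Trim8, -0.14 to 0.12 for Trim12a, -0.23 to 0.62 for Trim32, -0.20 to 0.39 for Trim37 and -0.10 to 0.95 for Trim30b. The cause of these changes was not tested. Sex as a block, chosen after seeing the data, pairs 1 knockout with 1 control mouse in each sex. With this block 6 TRIM members were called higher and 6 lower, and Trim7 and Trim39 also passed (adjusted p of 0.0124 and 0.0216 in edgeR). The share of all genes called in that fit is not given here. The added calls are therefore not read as particular to TRIM genes. The genotypes share no replicate numbers, so no pairing by number was made. Depth limits Trim10, with 2 and 3 counts in the knockouts, and Trim55, with 7 and 1 counts in the controls. Knockout 51 and knockout 63 were the libraries whose loss removed most calls.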
